A study of Mus musculus with 10 samples.

Results

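Type I interferon stimulated genes are the genes that a cell switches on when interferon binds its receptor, and 37 of them were followed here in the intestine of mice that overexpress the integrin subunit ITGB6. They were taken by symbol from the deposited gene tables, 37 of the 19456 genes listed in at least 1 library, and all 37 were listed in every library and passed the filter on low counts. They were sorted by role into 4 sensors of foreign nucleic acid, 4 transcription factors and 29 effectors. The libraries were poly-A RNA sequencing of intestinal tissue from C57BL/6 mice in 4 groups. The first held mice of the ITGB6 transgenic genotype (TG) given 2.5% dextran sulfate sodium by mouth (TG DSS, 2 libraries), and the second wild-type mice (WT) given the same agent (WT DSS, 2 libraries). The others were transgenic mice without treatment (TG untreated, 3 libraries) and wild-type mice without treatment (WT untreated, 3 libraries). Dextran sulfate sodium (DSS) is a sulfated polysaccharide that injures the gut epithelium, and ITGB6 encodes the β6 chain of an epithelial integrin that activates latent TGF-β. The promoter of the transgene, the number of founder lines, the age and sex of the mice, the segment of intestine and the length of the DSS course are not given in the sources used here.

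Type I interferons signal through the IFNAR receptor and the kinases JAK1 and TYK2, which phosphorylate STAT proteins. STAT2 acts with IRF9 in a complex, ISGF3, that binds the interferon-stimulated response element (ISRE) of target promoters. Type III interferons reach the same complex through a receptor that is found mainly on epithelial cells, so in the gut either family can drive these genes. The products include sensors of viral RNA and DNA, the factors that carry the signal, and proteins that block steps of viral growth.

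ISRE cores were searched in the RefSeq promoter windows (GRCm38.p6, 250 bases before to 50 bases after each transcription start), which hold 27 of the 37 genes. The windows of Mx1, Mx2, Rtp4, Parp9, Parp14, Zbp1, Ifi27l2a, Usp18, Dhx58 and Oas2 were not in the table. The core was spelled as GAAA, any 2 bases and GAAA again, and searched on both strands with overlapping matches included. In all, 14 of the 27 genes (51.9%) held it, against 1079 of 27025 genes (3.99%) in the whole table. A gamma-activated site, an element of type II interferon signalling spelled TTCNNNGAA, was in 6 of the 27 (22.2%) and in 9.55% of all genes. Its letters can overlap an ISRE core, as they do in Bst2. Shown first are the 250 bases before the start of Isg15 and Ifit1, which held cores, of Irf7 and Lgals3bp, the most abundant factor and effector, which held neither motif, and of Irf1, which held only the gamma-activated site. Each sequence runs 5′ to 3′ along the gene's own strand with matches to either motif in capitals.
Isg15 (chr4:156200819-156201068, minus strand): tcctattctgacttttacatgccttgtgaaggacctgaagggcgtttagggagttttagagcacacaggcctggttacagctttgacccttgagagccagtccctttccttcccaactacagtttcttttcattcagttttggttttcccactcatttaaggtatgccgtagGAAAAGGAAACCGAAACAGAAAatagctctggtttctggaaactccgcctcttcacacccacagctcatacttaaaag
Ifit1 (chr19:34640639-34640888, plus strand): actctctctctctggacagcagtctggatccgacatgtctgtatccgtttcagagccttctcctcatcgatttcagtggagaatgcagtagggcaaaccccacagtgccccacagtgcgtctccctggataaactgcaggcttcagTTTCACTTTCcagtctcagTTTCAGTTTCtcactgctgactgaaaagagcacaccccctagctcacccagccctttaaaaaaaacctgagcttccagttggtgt
Irf7 (chr7:141266425-141266674, minus strand): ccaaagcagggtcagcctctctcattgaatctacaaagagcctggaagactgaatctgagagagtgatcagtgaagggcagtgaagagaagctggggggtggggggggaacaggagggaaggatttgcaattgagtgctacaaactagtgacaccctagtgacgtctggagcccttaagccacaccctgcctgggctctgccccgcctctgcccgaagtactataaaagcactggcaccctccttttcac
Lgals3bp (chr11:118401960-118402209, minus strand): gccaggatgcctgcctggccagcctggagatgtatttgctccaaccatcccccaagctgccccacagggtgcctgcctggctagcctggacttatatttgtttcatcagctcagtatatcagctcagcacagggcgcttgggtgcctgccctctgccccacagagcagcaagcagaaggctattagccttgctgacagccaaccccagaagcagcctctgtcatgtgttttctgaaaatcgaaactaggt
Irf1 (chr11:53769764-53770013, plus strand): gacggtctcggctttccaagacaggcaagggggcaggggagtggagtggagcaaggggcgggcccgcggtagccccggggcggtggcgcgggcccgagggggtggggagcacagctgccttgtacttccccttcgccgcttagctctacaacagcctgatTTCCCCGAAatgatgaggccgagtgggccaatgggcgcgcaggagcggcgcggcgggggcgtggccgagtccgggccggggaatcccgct

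In Isg15 the capitals are 3 overlapping cores on the gene's strand, and in Ifit1 they are 2 cores on the opposite strand and so read TTTC, 2 bases and TTTC. For 9 further genes whose core lies before the start, the core nearest to the start is shown with 15 bases on each side. These runs are written along the strand on which the core starts with GAAA, so that the cores can be compared, with only the core in capitals.
Bst2 (chr8:71537572-71537611, minus strand): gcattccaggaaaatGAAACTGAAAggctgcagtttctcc
Cxcl10 (chr5:92349078-92349117, minus strand): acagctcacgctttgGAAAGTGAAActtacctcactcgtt
Ifit3 (chr19:34583392-34583431, minus strand): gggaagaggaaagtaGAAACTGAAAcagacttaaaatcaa
Oas1a (chr5:120907515-120907554, minus strand): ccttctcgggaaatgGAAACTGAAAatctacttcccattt
Oas1g (chr5:120887601-120887640, minus strand): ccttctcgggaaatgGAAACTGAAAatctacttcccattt
Oas3 (chr5:120777710-120777749, minus strand): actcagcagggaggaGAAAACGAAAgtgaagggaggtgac
Rsad2 (chr12:26456548-26456587, plus strand): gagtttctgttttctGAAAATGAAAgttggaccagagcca
Stat2 (chr10:128270261-128270300, minus strand): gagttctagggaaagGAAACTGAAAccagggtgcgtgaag
Trim30a (chr7:104465205-104465244, plus strand): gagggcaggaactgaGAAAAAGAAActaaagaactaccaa

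The Oas1a and Oas1g runs are the same, and these genes are neighbours on chromosome 5. Their full windows differ, as that of Oas1a held a gamma-activated site and that of Oas1g held none. In Ddx58, Eif2ak2 and Ifih1 the core lay wholly or partly after the annotated start. A match describes these letters and is not a measured binding site, and genes without one may carry other forms of the element.

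Each library held 15393859 to 18284704 deposited expected counts. Levels are given as CPM, counts scaled to library size by the trimmed mean of M values. An effect is the log2 fold change ± its standard error (SE) from edgeR's quasi-likelihood test. A gene passed at a Benjamini-Hochberg adjusted p under 0.05 over 14072 genes. Transgene reads, listed as human ITGB6, stood at 2453 and 2201 CPM in TG DSS, 0.709 and 1.13 CPM in WT DSS, 3632, 3853 and 3913 CPM in TG untreated and 0.117, 0.119 and 0.123 CPM in WT untreated. The epithelial markers summed to 9664 to 13635 CPM in every library and the smooth muscle markers to at most 9.66 CPM, so muscle transcripts were nearly absent from tissue labelled as whole intestine. Xist, the RNA that coats the inactive X chromosome of females, was at 307 to 739 CPM in the DSS libraries and 0 to 0.417 CPM in the untreated ones. Y-linked Kdm5d was at 0 CPM after DSS and 26.6 to 44.2 CPM without it. DSS against untreated therefore cannot be told apart from female against male in these libraries. TG untreated 1 stood apart from its group. Its leukocyte markers were lower (Ptprc 8.94 CPM, against 56.9 and 79.5 CPM in TG untreated 2 and 3). Over all genes tested its Spearman correlation with TG untreated 2 and 3 was 0.973 and 0.975, against 0.993 between those 2. Genes outside the leukocyte list differed both ways, as Jak2 (32.9 CPM, against 80.4 and 84.0 CPM) and Krt8 (8801 CPM, against 7495 and 7648 CPM). WT DSS 1 exceeded WT DSS 2 for all 37 genes. In bulk tissue, fewer cells of a type and less RNA per cell cannot be told apart.

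Taken over the 37 genes, the median log2 difference from the WT untreated mean was 0.49 and 0.65 in TG DSS, 1.80 and 0.81 in WT DSS, 1.23, 1.21 and 1.22 in TG untreated, and -0.07, 0.26 and -0.16 in WT untreated. The 3 untreated TG libraries nearly coincided and lay above every WT untreated library, both TG DSS libraries lay between those groups, and the WT DSS libraries lay far apart. The heat map of the genes by library shows the same order in most rows.

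**Figure D1:**
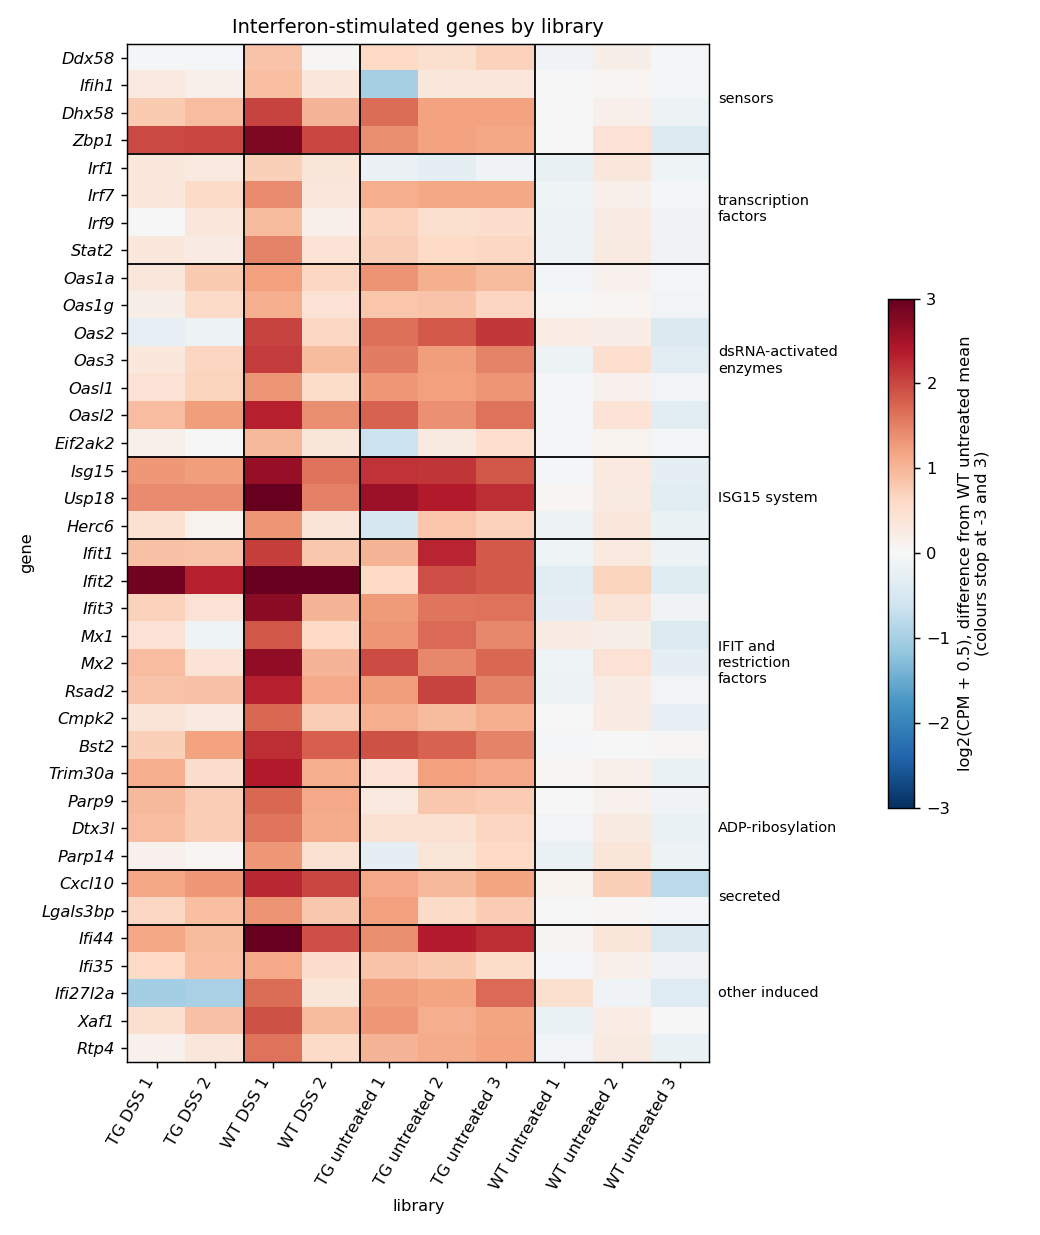
Heat map of the 37 genes (rows, ordered by role) in the 10 libraries (columns); the colour is the difference of log2(CPM + 0.5) from the WT untreated mean, cut off at -3 and 3. Most rows are red in TG untreated and darkest in WT DSS 1, and Ifi27l2a is blue in both TG DSS libraries.

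In untreated tissue, 22 of the 37 genes rose in TG against WT and 0 fell, where 3.7% of all genes tested passed, 2.26% rising and 1.44% falling. The median log2 fold change of the 37 was 1.19 (range -0.21 to 2.50), against -0.02 over all genes tested. All 3 TG libraries lay above all 3 WT libraries for 31 of the 37, an arrangement found in 16.7% of all genes. Sensors had 2 of 4 passing and a median of 0.91, transcription factors 1 of 4 and 0.60, and effectors 19 of 29 and 1.29; the difference between roles was not tested. The calls depended on single libraries: only Bst2 and Isg15 passed in each of the 10 fits that left out 1 library. Without WT untreated 1, 2 or 3, 4, 6 and 2 genes passed, where 0.94%, 0.649% and 0.413% of all genes tested did. Without TG untreated 2 or 3, 8 and 9 genes passed, where 0.969% and 1.76% of all genes did. Calls were thus lost over the whole table in these 5 fits, and the cause was not tested. In those 5 fits 28 to 32 of the 37 stayed under an unadjusted p of 0.05, with no share of all genes beside these counts. Without TG untreated 1, which stood apart from its group, 23 passed, where 5.19% of all genes did.

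DSS against untreated in WT gave 30 rises and no fall among the 37, where 19.8% of all genes passed, 10.2% rising and 9.62% falling. The median log2 fold change was 1.40 (range 0.51 to 3.63), against 0.00 over all genes tested, and both DSS libraries lay above all 3 untreated ones for 34 genes, as for 28.4% of all genes. The rise was uneven between the DSS libraries: without WT DSS 1 the median was 0.81, and without WT DSS 2 it was 1.77. By role, 2 of 4 sensors (median 1.14), 2 of 4 transcription factors (median 0.78) and 26 of 29 effectors (median 1.49) passed. Monocyte and macrophage markers summed to 144 to 159 CPM in WT DSS and 40.2 to 50.1 CPM in WT untreated, with 4 of 6 markers higher. Neutrophil markers summed to 138 to 145 CPM in WT DSS and 61.7 to 78.3 CPM in WT untreated, with 6 of 6 higher. Most of these sums came from Cd14, at 119.9 to 124 CPM in WT DSS and 30.9 to 38.3 CPM in WT untreated, and from Ly6g, at 103 to 120.3 CPM and 55.7 to 72.1 CPM. General leukocyte markers went the other way, at 54.2 to 68.7 CPM in WT DSS and 161 to 314 CPM in WT untreated, with 2 of 3 lower; the part of these cells in the gene values was not tested.

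In TG, DSS against untreated gave no rise and 3 falls (Oas2, Bst2 and Ifi27l2a), where 5.48% of all genes passed, 3.33% rising and 2.15% falling. The median log2 fold change was -0.53, against 0.01 over all genes tested; 29 of the 37 were below 0, and both DSS libraries lay below all 3 untreated ones for 24 genes and above them for 4, as for 16% and 19.1% of all genes. None of the 3 falls passed in every fit without 1 library. Without TG DSS 1 or 2 the median was -0.44 and -0.67. Without TG untreated 1, 6 genes passed, where 11.9% of all genes did. Monocyte and macrophage markers summed to 107 to 123 CPM in TG DSS and 55.5 to 62.1 CPM in TG untreated, and neutrophil markers to 185 to 253 CPM and 28.9 to 39.3 CPM, with 3 of 6 and 5 of 6 markers higher. Again Cd14 made 80.4 to 96.5 CPM of the sums in TG DSS and 38.9 to 53.3 CPM in TG untreated, and Ly6g 159 to 235 CPM and 23.5 to 33.6 CPM, while S100a8 and S100a9 held 3.57 to 7.56 CPM in TG DSS and 4.16 to 12.1 CPM in WT DSS. Transgene reads were also lower in TG DSS, as given above, and the part of that difference in these values was not tested.

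Whether the difference between DSS and untreated libraries differed by genotype was tested for each gene by the interaction. As sex-linked genes split the DSS from the untreated libraries, genotype by DSS cannot be told apart from genotype by sex. The interaction, which subtracts the WT difference from the TG difference, was negative for all 37 genes. It passed for 17, where 0.32% of all genes passed in that direction and 0.526% in the other. Its median was -2.04 (range -4.03 to -0.03), against 0.00 over all genes tested, with 1 of 4 sensors, 0 of 4 transcription factors and 16 of 29 effectors passing. At an unadjusted p under 0.05 the counts were 33 of all 37 and 3 of the 4 transcription factors, without a share of all genes to set beside them. DESeq2 called 30 of the 37 with 2 of the 4 transcription factors, and 3.06% of all genes. Bst2 alone passed in each of the 10 fits without a library. The count of passing genes was 4, 8 and 3 without WT untreated 1, 2 and 3, where 0.249%, 0.45% and 0.292% of all genes passed. It was 24, 4 and 4 without TG untreated 1, 2 and 3, where 2.74%, 0.399% and 0.292% of all genes passed. Without WT DSS 2 the median was -2.46, and without TG DSS 1 or 2 it was -2.00. Without WT DSS 1 the median was -1.45, and 36 or 37 genes stayed below 0 in every fit.

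After DSS, none of the 37 genes passed between TG and WT in edgeR, where 0.178% of all genes rose and 0.00711% fell. Of the 37, 23 were under an unadjusted p of 0.05, a count that stands without the share of all genes at that threshold. DESeq2 called 6 of them, all lower, and 1.83% of all genes in either direction. Every log2 fold change was below 0, with a median of -0.84 against -0.01 over all genes tested, and both TG libraries lay below both WT libraries for 26 genes, as for 21.2% of all genes. Without WT DSS 1 the median was -0.27 and 31 of the 37 were below 0, and without WT DSS 2 it was -1.21. Without TG untreated 1, 2 genes passed, where 1.03% of all genes did. These 5 comparisons share libraries, so they are not independent of each other.

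**Figure D2:**
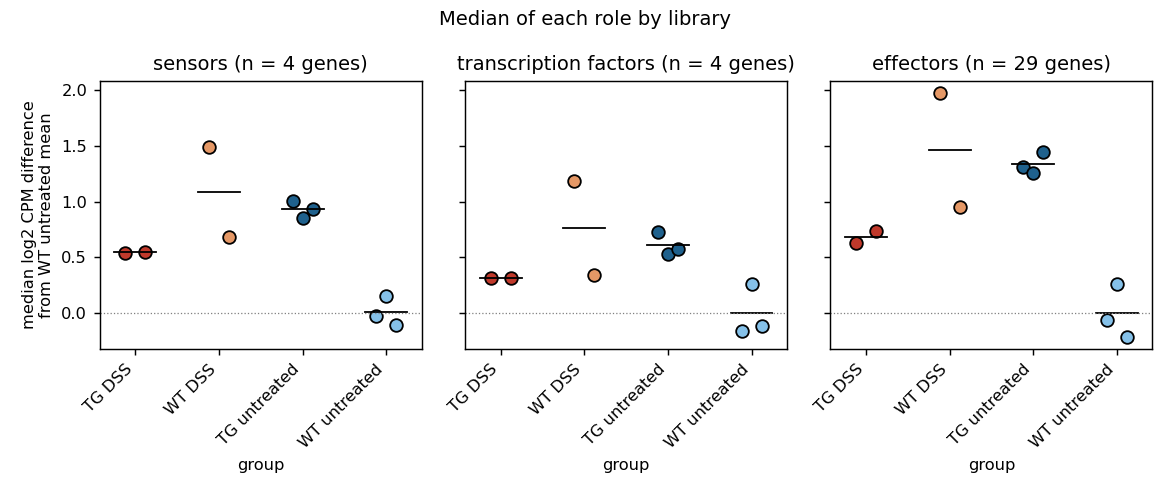
Median over the genes of each role of the log2 CPM difference from the WT untreated mean, by library (points) and group mean (lines), for 4 sensors, 4 transcription factors and 29 effectors. In each panel the TG untreated libraries lie above the WT untreated ones, and WT DSS 1 is the highest point.

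The sensors recognise nucleic acid in the cytosol. Dhx58 encodes LGP2, a helicase that modulates RIG-I and MDA5, and Zbp1 encodes a sensor of Z-form nucleic acid that can start necroptosis. Dhx58 measured 27.1 and 30.1 CPM in TG DSS and 65.1 and 32.1 CPM in WT DSS. Dhx58 was at 50.7, 36.4 and 36.7 CPM in TG untreated and 15.7, 17.3 and 13.9 CPM in WT untreated. The TG untreated and both DSS groups all lay above WT untreated, and TG DSS lay below WT DSS and below TG untreated. Dhx58 rose in untreated TG against WT (log2 1.40 ± 0.24, adjusted p = 0.017) and with DSS in WT (log2 1.64 ± 0.26, adjusted p = 0.00317; 1.04 without WT DSS 1). Its interaction passed (log2 -2.17 ± 0.38, adjusted p = 0.0345). Zbp1 was at 97.2 and 99.1 CPM in TG DSS and 172 and 97.6 CPM in WT DSS. Zbp1 stood at 64.3, 56.1 and 54.7 CPM in TG untreated and 23.8, 32.9 and 18 CPM in WT untreated. Zbp1 was the 1 sensor whose TG DSS libraries lay above all TG untreated libraries, and the DSS groups overlapped. Zbp1 rose in untreated TG against WT (log2 1.23 ± 0.24, adjusted p = 0.0239) and with DSS in WT (log2 2.44 ± 0.26, adjusted p = 0.000329), while DSS in TG gave log2 0.75 ± 0.26, adjusted p = 0.126. The untreated call of Dhx58 ended without WT untreated 1, 2 or 3 (adjusted p = 0.069 to 0.0883) and that of Zbp1 without WT untreated 1 or 3 or TG untreated 2 or 3 (adjusted p = 0.0553 to 0.101). The interaction of Dhx58 ended without WT untreated 1, 2 or 3, TG untreated 2 or 3 or TG DSS 1 or 2 (adjusted p = 0.065 to 0.187); the DSS calls of both genes in WT passed in all 10 fits.

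Ddx58 and Ifih1 encode RIG-I and MDA5, the helicases that detect viral RNA and signal through MAVS. Ddx58 stood at 29.4 and 29.9 CPM in TG DSS and 55.8 and 31.6 CPM in WT DSS. Ddx58 measured 46.6, 43.2 and 49.7 CPM in TG untreated and 28.3, 34.4 and 29.6 CPM in WT untreated. TG untreated lay above WT untreated without overlap, whereas WT DSS 2 lay within the WT untreated range. Neither contrast passed (untreated TG against WT, log2 0.60 ± 0.18, adjusted p = 0.106; DSS in WT, log2 0.51 ± 0.20, adjusted p = 0.108), and the DSS value was the smallest of the 37 genes in WT. Ifih1 measured 100.02 and 91.5 CPM in TG DSS and 155 and 102 CPM in WT DSS. Ifih1 was at 41, 103 and 104 CPM in TG untreated and 81.2, 85.8 and 79.5 CPM in WT untreated. TG untreated 1 held the lowest value of all 10 libraries and TG untreated 2 and 3 lay above WT untreated. The untreated contrast was log2 0.01 ± 0.30, adjusted p = 0.99, and no contrast of Ifih1 passed.

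Of the transcription factors, Irf7 is the amplifier of interferon production, and Stat2 and Irf9 are the parts of ISGF3 that are particular to type I and type III signalling. Irf7 was at 169 and 200.5 CPM in TG DSS and 364 and 170.3 CPM in WT DSS. Irf7 stood at 291, 305 and 304 CPM in TG untreated and 124, 150.4 and 133 CPM in WT untreated. The TG untreated libraries lay within a narrow band above every library but WT DSS 1, and the DSS groups overlapped. Irf7 rose in untreated TG against WT (log2 1.14 ± 0.22, adjusted p = 0.025) and with DSS in WT (log2 0.97 ± 0.24, adjusted p = 0.0215). The DSS value was 0.33 without WT DSS 1 (adjusted p = 0.155), and that call also ended without WT untreated 1 or 3. The untreated call ended without WT untreated 1, 2 or 3 or TG untreated 2 or 3 (adjusted p = 0.064 to 0.114). Stat2 stood at 59.2 and 56.6 CPM in TG DSS and 134 and 62.9 CPM in WT DSS. Stat2 measured 80.1, 71.6 and 73.1 CPM in TG untreated and 42.5, 57.5 and 43.9 CPM in WT untreated. WT DSS 1 was the highest library by a wide margin, TG untreated lay above WT untreated, and TG DSS overlapped WT untreated. Stat2 rose with DSS in WT (log2 1.03 ± 0.26, adjusted p = 0.0199), a value of 0.39 without WT DSS 1 (adjusted p = 0.161), and the call also ended without WT untreated 1 or 3; the untreated contrast was log2 0.64 ± 0.23, adjusted p = 0.158.

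Irf9 measured 49.9 and 63.6 CPM in TG DSS and 97.3 and 56.3 CPM in WT DSS. Irf9 was at 81.9, 70.2 and 73.3 CPM in TG untreated and 45.6, 60.3 and 46.6 CPM in WT untreated. TG untreated lay above WT untreated, and WT DSS 2 lay within the WT untreated range. No contrast of Irf9 passed (untreated TG against WT, log2 0.56 ± 0.20, adjusted p = 0.149; DSS in WT, log2 0.59 ± 0.22, adjusted p = 0.0843). Irf1 encodes a factor that type II interferon also induces, and it was the 1 gene of the 37 below 0 in the untreated contrast. Irf1 was at 242 and 237 CPM in TG DSS and 317 and 246 CPM in WT DSS. Irf1 stood at 169.6, 159 and 179 CPM in TG untreated and 165, 243 and 177 CPM in WT untreated. TG and WT untreated overlapped, both WT DSS libraries lay above all untreated ones, and both TG DSS libraries lay above all untreated ones except WT untreated 2. Its untreated contrast was log2 -0.21 ± 0.15, adjusted p = 0.465, its DSS contrasts were log2 0.50 ± 0.17, adjusted p = 0.122 in TG and log2 0.53 ± 0.17, adjusted p = 0.0514 in WT, and its interaction, the closest to 0 of the 37, was log2 -0.03 ± 0.24, adjusted p = 0.977. Per length, Irf7 and Irf1 were the highest of the 8 sensors and factors, at a mean of 120.3 and 99.1 FPKM (fragments scaled to gene length and library size) over the 10 libraries, while Ddx58 was the lowest at 7.55 FPKM.

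**Figure D3:**
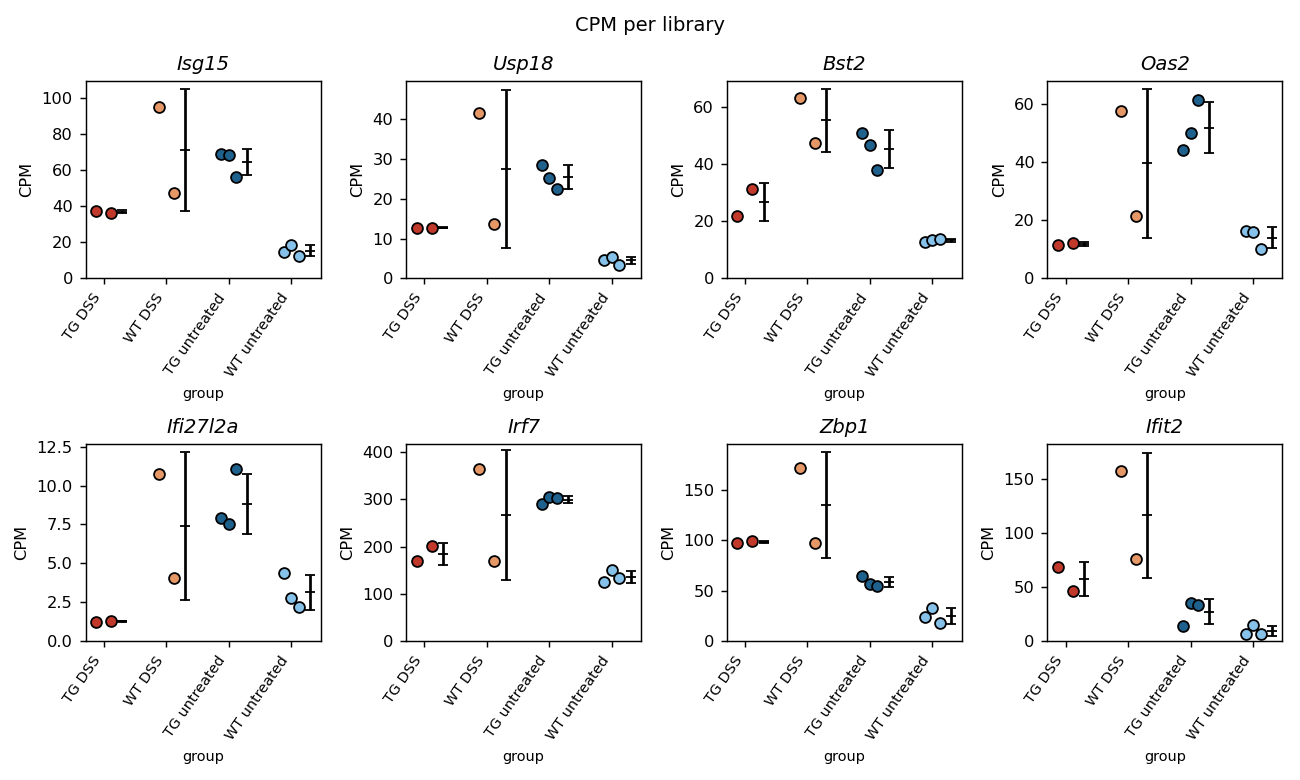
CPM in each library (points) with group mean and SD (bars; n = 2, 2, 3 and 3 libraries) for Isg15, Usp18, Bst2, Oas2, Ifi27l2a, Irf7, Zbp1 and Ifit2; each axis starts at 0. In Isg15, Usp18 and Bst2 the TG untreated libraries lie above both TG DSS libraries, and in Zbp1 and Ifit2 below them.

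The ISG15 system had the highest median of the effector groups in untreated TG against WT, at 2.08, with 2 of 3 genes passing. Isg15 encodes a ubiquitin-like protein that is conjugated to others, and Usp18 the protease that removes it and also restrains the interferon receptor. Isg15 stood at 37.6 and 36.5 CPM in TG DSS and 95 and 47.4 CPM in WT DSS. Isg15 measured 69.2, 68.3 and 56.1 CPM in TG untreated and 14.8, 18.5 and 12.4 CPM in WT untreated. The 3 TG untreated libraries, like all 4 DSS libraries, lay above WT untreated, and TG DSS lay below both TG untreated and WT DSS. Isg15 was 4.23-fold higher in untreated TG than in WT (log2 2.08 ± 0.24, adjusted p = 0.00322) and rose with DSS in WT (log2 2.22 ± 0.26, adjusted p = 0.000576), both in all 10 fits without 1 library. DSS in TG gave log2 -0.80 ± 0.26, adjusted p = 0.114, and the interaction passed (log2 -3.02 ± 0.38, adjusted p = 0.00734), ending without TG DSS 1 or 2 (adjusted p = 0.0565 to 0.0598). Usp18 measured 12.6 and 12.8 CPM in TG DSS and 41.6 and 13.6 CPM in WT DSS. Usp18 was at 28.5, 25.3 and 22.5 CPM in TG untreated and 4.63, 5.42 and 3.45 CPM in WT untreated. This was the largest rise of the 37 in untreated tissue, and WT DSS 2 lay close to both TG DSS libraries. Usp18 was 5.64-fold higher in untreated TG (log2 2.50 ± 0.36, adjusted p = 0.00845), a call that ended without WT untreated 3 (adjusted p = 0.0515), and rose with DSS in WT (log2 2.61 ± 0.38, adjusted p = 0.00199; 1.59 without WT DSS 1). Its interaction was log2 -3.61 ± 0.55, adjusted p = 0.0205, ending without WT untreated 1 or 3, TG untreated 2 or TG DSS 1 or 2 (adjusted p = 0.0508 to 0.132). Herc6, the mouse ligase that attaches ISG15, passed in no contrast and was at 8.65 CPM in TG untreated 1, against 22.7 and 20.6 CPM in TG untreated 2 and 3.

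The group named double-stranded RNA activated enzymes holds oligoadenylate synthetases, which make the signal that turns on RNase L, their relatives Oasl1 and Oasl2, and Eif2ak2. The name does not assign that activity to each relative. Of its 7 genes, 6 rose in untreated TG and 6 with DSS in WT. Oas2 was at 11.4 and 12.3 CPM in TG DSS and 57.5 and 21.4 CPM in WT DSS. Oas2 stood at 44.1, 49.97 and 61.4 CPM in TG untreated and 16.1, 15.9 and 9.97 CPM in WT untreated. Both TG DSS libraries lay below both WT DSS libraries and all TG untreated libraries, and within the WT untreated range. Oas2 rose in untreated TG against WT (log2 1.89 ± 0.33, adjusted p = 0.017) and with DSS in WT (log2 1.49 ± 0.35, adjusted p = 0.0165; 0.61 without WT DSS 1), and fell with DSS in TG (log2 -2.13 ± 0.38, adjusted p = 0.011). The interaction was log2 -3.62 ± 0.52, adjusted p = 0.0154, and ended without TG DSS 1 or 2 (adjusted p = 0.0951 to 0.124). The fall in TG ended without TG DSS 1 or 2 (adjusted p = 0.108 to 0.116), the untreated call without WT untreated 1, 2 or 3 or TG untreated 2 (adjusted p = 0.055 to 0.0809), and the rise in WT without WT untreated 3 or WT DSS 1 (adjusted p = 0.0605 to 0.147). Oas3 stood at 36.4 and 46.3 CPM in TG DSS and 127 and 57 CPM in WT DSS. Oas3 measured 85.8, 70.7 and 83.6 CPM in TG untreated and 26.3, 41.8 and 23 CPM in WT untreated. TG untreated lay above TG DSS without overlap, and WT DSS 1 was the highest library. Oas3 rose in untreated TG (log2 1.40 ± 0.30, adjusted p = 0.0312) and with DSS in WT (log2 1.60 ± 0.32, adjusted p = 0.00862; 0.91 without WT DSS 1). The interaction of Oas3 was log2 -2.55 ± 0.46, adjusted p = 0.0393. The untreated call ended without WT untreated 1, 2 or 3, TG untreated 2 or 3 or TG DSS 1 or 2 (adjusted p = 0.05 to 0.137), that in WT without WT DSS 1 (adjusted p = 0.0568) and the interaction without WT untreated 1 or 3, TG untreated 2 or 3 or TG DSS 1 or 2 (adjusted p = 0.0832 to 0.224).

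Oas1a, the most abundant synthetase per length, measured 121 and 165 CPM in TG DSS and 225 and 147 CPM in WT DSS. Oas1a was at 245, 201 and 185 CPM in TG untreated and 89.9, 104 and 92.4 CPM in WT untreated. All TG untreated libraries lay above TG DSS and WT untreated, and the DSS groups overlapped. Oas1a rose in untreated TG (log2 1.14 ± 0.18, adjusted p = 0.0138) and with DSS in WT (log2 0.96 ± 0.20, adjusted p = 0.00978). The interaction of Oas1a was log2 -1.52 ± 0.29, adjusted p = 0.0422. The untreated call ended without WT untreated 1, 2 or 3 (adjusted p = 0.05 to 0.0696), that in WT without WT DSS 1 (adjusted p = 0.0615) and the interaction without WT untreated 1, 2 or 3, TG untreated 2 or 3, WT DSS 1 or TG DSS 1 or 2 (adjusted p = 0.0508 to 0.225). Its neighbour Oas1g, whose reads may be shared with Oas1a, rose by 0.79 in untreated TG (adjusted p = 0.0351) and by 0.80 with DSS in WT (adjusted p = 0.0168; 0.43 without WT DSS 1). For Oas1g the untreated call ended without WT untreated 1, 2 or 3 or TG untreated 2 or 3 (adjusted p = 0.0629 to 0.147) and that in WT without WT untreated 1 or 3 or WT DSS 1 (adjusted p = 0.0539 to 0.118). The relatives Oasl1 and Oasl2 carry ubiquitin-like domains. Oasl2 was at 129.9 and 163 CPM in TG DSS and 346 and 179 CPM in WT DSS. Oasl2 stood at 233, 176 and 211 CPM in TG untreated and 65, 91.4 and 53.3 CPM in WT untreated. Every other library lay above WT untreated, and both TG DSS libraries lay below both WT DSS libraries. Oasl2 rose in untreated TG (log2 1.56 ± 0.26, adjusted p = 0.0152) and with DSS in WT (log2 1.91 ± 0.28, adjusted p = 0.0021). The interaction of Oasl2 was log2 -2.40 ± 0.41, adjusted p = 0.0299; the interaction ended without WT untreated 1 or 3, TG untreated 2 or 3 or TG DSS 1 or 2 (adjusted p = 0.0558 to 0.185) and the untreated call without WT untreated 1 or 3 (adjusted p = 0.0678 to 0.0724).

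Oasl1, which in mice restrains translation of Irf7, stood at 43 and 50.5 CPM in TG DSS and 79.9 and 46.6 CPM in WT DSS. Oasl1 measured 78.6, 75.4 and 80.0 CPM in TG untreated and 30.7, 34.8 and 30.0 CPM in WT untreated. The 3 TG untreated libraries were close together and above both TG DSS libraries, and the DSS groups overlapped. Oasl1 rose in untreated TG (log2 1.29 ± 0.18, adjusted p = 0.00699) and with DSS in WT (log2 0.99 ± 0.19, adjusted p = 0.00756). The interaction of Oasl1 was log2 -1.73 ± 0.28, adjusted p = 0.0238. The untreated call ended without WT untreated 3 (adjusted p = 0.05) and the interaction without WT untreated 1 or 3, TG untreated 2 or 3 or TG DSS 1 or 2 (adjusted p = 0.0558 to 0.161). Eif2ak2 encodes PKR, the kinase that stops translation, and passed in no contrast (0.12 in untreated TG against WT and 0.71 with DSS in WT). Its TG untreated libraries held 25.6, 48.5 and 57.2 CPM, with TG untreated 1 the lowest of all 10 libraries.

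Of 9 IFIT proteins and restriction factors, 6 rose in untreated TG and 9 with DSS in WT. Bst2 encodes tetherin, which holds budding virions at the cell surface. Bst2 measured 22 and 31.3 CPM in TG DSS and 63.2 and 47.5 CPM in WT DSS. Bst2 was at 51.1, 46.8 and 38.2 CPM in TG untreated and 12.8, 13.4 and 13.7 CPM in WT untreated. The groups did not overlap except TG untreated with WT DSS, and WT untreated was the lowest and tightest. Bst2 was 3.41-fold higher in untreated TG (log2 1.77 ± 0.17, adjusted p = 0.00119), rose with DSS in WT (log2 2.06 ± 0.19, adjusted p = 0.000158) and fell with DSS in TG (log2 -0.77 ± 0.19, adjusted p = 0.0455). The interaction of Bst2 was log2 -2.82 ± 0.27, adjusted p = 0.00161. The rises and the interaction passed in every fit without 1 library, and the fall ended without WT untreated 1, 2 or 3, TG untreated 2 or TG DSS 1 or 2 (adjusted p = 0.0691 to 0.31). The IFIT proteins bind RNA that lacks the cap marks of the host. Ifit1 was at 36.6 and 36 CPM in TG DSS and 85.6 and 35.1 CPM in WT DSS. Ifit1 stood at 40.7, 99.2 and 72.3 CPM in TG untreated and 17.9, 24.2 and 17.8 CPM in WT untreated. TG untreated 1 was the lowest of its group yet above all WT untreated libraries, and WT DSS 2 was close to both TG DSS libraries. Ifit1 rose in untreated TG (log2 1.82 ± 0.36, adjusted p = 0.0252), ending without WT untreated 1, 2 or 3 or TG untreated 2 or 3 (adjusted p = 0.0631 to 0.118), and with DSS in WT (log2 1.59 ± 0.39, adjusted p = 0.0191; 0.81 without WT DSS 1), ending without WT untreated 1 or 3 or WT DSS 1 (adjusted p = 0.0685 to 0.174).

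Ifit2 stood at 69 and 46.3 CPM in TG DSS and 157 and 75.7 CPM in WT DSS. Ifit2 measured 13.7, 35.3 and 33.1 CPM in TG untreated and 6.98, 14.5 and 6.83 CPM in WT untreated. All DSS libraries lay above all untreated libraries in both genotypes, and TG untreated 1 lay below WT untreated 2. Ifit2 had the largest rise of the 37 with DSS in WT, 12.3-fold (log2 3.63 ± 0.47, adjusted p = 0.00105; 3.01 without WT DSS 1), and the highest value with DSS in TG, which did not pass (log2 1.07 ± 0.45, adjusted p = 0.211). The untreated contrast was log2 1.54 ± 0.43, adjusted p = 0.082. Ifit3 measured 11 and 9.13 CPM in TG DSS and 45.7 and 13.9 CPM in WT DSS. Ifit3 was at 16.7, 21.1 and 21.3 CPM in TG untreated and 5.34, 8.81 and 6.03 CPM in WT untreated. Both TG DSS libraries lay below both WT DSS libraries and all TG untreated libraries, and above WT untreated. Ifit3 rose with DSS in WT (log2 2.15 ± 0.40, adjusted p = 0.00659; 1.05 without WT DSS 1) and its interaction passed (log2 -3.12 ± 0.59, adjusted p = 0.0422), ending without WT untreated 1, 2 or 3, TG untreated 2 or 3 or TG DSS 1 or 2 (adjusted p = 0.0657 to 0.191). The untreated contrast was log2 1.55 ± 0.38, adjusted p = 0.0521. Mx1 encodes a dynamin-like GTPase whose C57BL/6 allele is known to be defective, although its promoter still answers interferon. Mx1 was at 8.79 and 5.74 CPM in TG DSS and 24.5 and 9.83 CPM in WT DSS. Mx1 stood at 16.6, 21.6 and 17.9 CPM in TG untreated and 7.57, 7.2 and 4.61 CPM in WT untreated. TG DSS lay below both WT DSS and TG untreated without overlap, and TG DSS 2 lay within the WT untreated range. Mx1 rose in untreated TG (log2 1.53 ± 0.33, adjusted p = 0.033), ending without WT untreated 1, 2 or 3 or TG untreated 2 or 3 (adjusted p = 0.0717 to 0.14).

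With DSS in WT Mx1 also rose (log2 1.40 ± 0.36, adjusted p = 0.0222; 0.61 without WT DSS 1), ending without WT untreated 1, 2 or 3 or WT DSS 1 (adjusted p = 0.0511 to 0.216), and its interaction of -2.77 (adjusted p = 0.0412) ended without WT untreated 1, 2 or 3, TG untreated 2 or 3 or TG DSS 1 or 2 (adjusted p = 0.0837 to 0.188). Rsad2 encodes viperin, a radical enzyme that makes a chain-terminating nucleotide, and Cmpk2, its neighbour on chromosome 12, supplies the nucleotide pathway. Rsad2 stood at 11.1 and 11.3 CPM in TG DSS and 31.7 and 13.5 CPM in WT DSS. Rsad2 measured 14.7, 25.7 and 17.5 CPM in TG untreated and 5.22, 7.02 and 5.54 CPM in WT untreated. WT DSS 1 was the highest library, and both TG DSS libraries lay below all others except WT untreated. Rsad2 rose in untreated TG (log2 1.70 ± 0.31, adjusted p = 0.0207), ending without WT untreated 1, 2 or 3 or TG untreated 2 (adjusted p = 0.0765 to 0.101), and with DSS in WT (log2 1.93 ± 0.34, adjusted p = 0.00487; 1.19 without WT DSS 1). The interaction of Rsad2 was log2 -2.71 ± 0.49, adjusted p = 0.0369, ending without WT untreated 1, 2 or 3, TG untreated 2 or 3 or TG DSS 1 or 2 (adjusted p = 0.067 to 0.187). Cmpk2 measured 21.5 and 20.1 CPM in TG DSS and 55.6 and 27.4 CPM in WT DSS. Cmpk2 was at 35.2, 32 and 35.4 CPM in TG untreated and 16.2, 19.6 and 13.7 CPM in WT untreated. TG DSS lay just above the highest WT untreated library, and below WT DSS and TG untreated. Cmpk2 rose in untreated TG (log2 1.05 ± 0.23, adjusted p = 0.0366), ending without WT untreated 1, 2 or 3, TG untreated 2 or 3 or TG DSS 1 or 2 (adjusted p = 0.0622 to 0.155), and with DSS in WT (log2 1.33 ± 0.25, adjusted p = 0.0068; 0.73 without WT DSS 1). The interaction of Cmpk2 was log2 -2.04 ± 0.36, adjusted p = 0.0354, ending without WT untreated 1, 2 or 3, TG untreated 2 or 3 or TG DSS 1 or 2 (adjusted p = 0.0527 to 0.18). Of the others, Mx2, the lowest of the 37 per length, rose in untreated TG (2.08, adjusted p = 0.0433; passing in 2 of the 10 fits without a library) and with DSS in WT (2.46, adjusted p = 0.00994; 1.29 without WT DSS 1; ending without WT DSS 1 (adjusted p = 0.073)). Trim30a, a restraint on inflammatory signalling in mice, rose with DSS in WT (1.90, adjusted p = 0.00675; 1.11 without WT DSS 1) and had 0.99 in untreated TG (adjusted p = 0.133).

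Of the 3 ADP-ribosylation genes, 0 rose in untreated TG in edgeR (2 at an unadjusted p under 0.05, and 1, Parp9, in DESeq2) and 3 rose with DSS in WT. Parp9 and its ubiquitin ligase partner Dtx3l form a complex and lie head to head on chromosome 16, where their annotated spans overlap. Parp9 was at 114 and 96.6 CPM in TG DSS and 189.7 and 126 CPM in WT DSS. Parp9 stood at 70.2, 101 and 96.8 CPM in TG untreated and 57.1, 62.3 and 53.1 CPM in WT untreated. Dtx3l stood at 113 and 99 CPM in TG DSS and 180.2 and 128 CPM in WT DSS. Dtx3l measured 81.9, 81.5 and 93.6 CPM in TG untreated and 56.5, 72.1 and 51.3 CPM in WT untreated. In both, TG untreated lay above WT untreated without overlap and all DSS libraries lay above WT untreated, with TG DSS below WT DSS. With DSS in WT, Parp9 rose by log2 1.46 ± 0.20, adjusted p = 0.00119, and Dtx3l by log2 1.36 ± 0.18, adjusted p = 0.001, both in all 10 fits without 1 library. In untreated TG against WT the values were log2 0.64 ± 0.18, adjusted p = 0.0818, for Parp9 and log2 0.51 ± 0.16, adjusted p = 0.111, for Dtx3l. Parp14, a mono-ADP-ribosyltransferase, rose with DSS in WT by 0.92 (adjusted p = 0.0482), passing in 3 of the 10 fits, with 0.44 without WT DSS 1.

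Secreted products were Lgals3bp, a galectin-binding glycoprotein and the most abundant of the 37 genes in CPM and per length, and Cxcl10, the chemokine that draws CXCR3-bearing lymphocytes. Lgals3bp measured 376 and 454 CPM in TG DSS and 617 and 426 CPM in WT DSS. Lgals3bp was at 572, 360.0 and 411 CPM in TG untreated and 246, 248.8 and 236 CPM in WT untreated. WT untreated was tight and below every other library, and the other 3 groups overlapped. Lgals3bp rose in untreated TG (log2 0.88 ± 0.19, adjusted p = 0.0318), ending without WT untreated 1, 2 or 3, TG untreated 3 or TG DSS 1 or 2 (adjusted p = 0.0504 to 0.13), and with DSS in WT (log2 1.10 ± 0.20, adjusted p = 0.00626). Cxcl10 was at 3.34 and 3.75 CPM in TG DSS and 7.74 and 6.43 CPM in WT DSS. Cxcl10 stood at 3.28, 2.89 and 3.41 CPM in TG untreated and 1.35, 2.32 and 0.492 CPM in WT untreated. Its level was low throughout, and both WT DSS libraries lay above all 8 others. Cxcl10 rose with DSS in WT (log2 2.34 ± 0.41, adjusted p = 0.00486), and was log2 1.19 ± 0.39, adjusted p = 0.126, in untreated TG against WT.

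Among the 5 other induced genes, Ifi27l2a, which encodes a small membrane protein, had the lowest values in TG DSS relative to every other group. Ifi27l2a stood at 1.23 and 1.29 CPM in TG DSS and 10.8 and 4.05 CPM in WT DSS. Ifi27l2a measured 7.93, 7.5 and 11 CPM in TG untreated and 4.4, 2.8 and 2.21 CPM in WT untreated. Both TG DSS libraries were the lowest of the 10, below all WT untreated libraries, and TG untreated lay above WT untreated. Ifi27l2a had the largest fall of the 37 with DSS in TG (log2 -2.80 ± 0.47, adjusted p = 0.00787; ending without TG DSS 1 or 2 (adjusted p = 0.0856 to 0.101)), the largest negative interaction (log2 -4.03 ± 0.62, adjusted p = 0.0205; ending without WT untreated 2 or 3, TG untreated 3 or TG DSS 1 or 2 (adjusted p = 0.0516 to 0.14)) and the lowest value in TG against WT after DSS (log2 -2.54 ± 0.49, adjusted p = 0.1). Its values in untreated TG and with DSS in WT did not pass (1.49 with adjusted p = 0.0552, and 1.23 with adjusted p = 0.0554). Ifi44 measured 12.9 and 10.9 CPM in TG DSS and 66.4 and 22.2 CPM in WT DSS. Ifi44 was at 15, 30.0 and 27.1 CPM in TG untreated and 5.81, 7.14 and 3.88 CPM in WT untreated. WT DSS 1 was far above the rest, and TG DSS lay below WT DSS and TG untreated and above WT untreated. Ifi44 rose in untreated TG (log2 2.10 ± 0.41, adjusted p = 0.025) and with DSS in WT (log2 2.98 ± 0.44, adjusted p = 0.00216; 1.99 without WT DSS 1). The interaction of Ifi44 was log2 -3.99 ± 0.64, adjusted p = 0.0238. The untreated call ended without WT untreated 1, 2 or 3 or TG untreated 2 or 3 (adjusted p = 0.0651 to 0.117) and the interaction without WT untreated 1 or 3, TG untreated 2 or 3 or TG DSS 1 or 2 (adjusted p = 0.0649 to 0.144).

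Xaf1 encodes a zinc-finger protein that promotes cell death, and Rtp4 a chaperone of receptors that also binds viral replication machinery. Xaf1 was at 12 and 16.1 CPM in TG DSS and 33.4 and 16.7 CPM in WT DSS. Xaf1 stood at 21.4, 18.5 and 19.9 CPM in TG untreated and 7.27, 9.94 and 8.37 CPM in WT untreated. Every other library lay above WT untreated, and TG DSS lay below TG untreated. Xaf1 rose in untreated TG (log2 1.22 ± 0.25, adjusted p = 0.0262; ending without WT untreated 1, 2 or 3 or TG untreated 2 or 3 (adjusted p = 0.065 to 0.117)) and with DSS in WT (log2 1.55 ± 0.27, adjusted p = 0.0044; 0.97 without WT DSS 1). The interaction of Xaf1 was log2 -2.06 ± 0.38, adjusted p = 0.041, ending without WT untreated 1, 2 or 3, TG untreated 2 or 3 or TG DSS 1 or 2 (adjusted p = 0.0676 to 0.224). Rtp4 stood at 22.3 and 25.8 CPM in TG DSS and 63.8 and 30.6 CPM in WT DSS. Rtp4 measured 42.3, 45.1 and 47.7 CPM in TG untreated and 19.4, 24.7 and 17.8 CPM in WT untreated. TG DSS overlapped WT untreated and lay below TG untreated and WT DSS. Rtp4 rose in untreated TG (log2 1.13 ± 0.24, adjusted p = 0.031; ending without WT untreated 1, 2 or 3, TG untreated 2 or 3 or TG DSS 1 or 2 (adjusted p = 0.0511 to 0.139)) and with DSS in WT (log2 1.19 ± 0.26, adjusted p = 0.012; 0.57 without WT DSS 1; ending without WT DSS 1 (adjusted p = 0.066)). The interaction of Rtp4 was log2 -2.10 ± 0.37, adjusted p = 0.0354, ending without WT untreated 1, 2 or 3, TG untreated 2 or 3 or TG DSS 1 or 2 (adjusted p = 0.0519 to 0.195). Ifi35, a leucine-zipper protein, had the value closest to 0 of the 37 between TG and WT after DSS. Ifi35 measured 43.2 and 54 CPM in TG DSS and 63.6 and 41.6 CPM in WT DSS. Ifi35 was at 52.1, 49.9 and 42.4 CPM in TG untreated and 28, 31.7 and 26.5 CPM in WT untreated. Every other library lay above WT untreated, and the other 3 groups overlapped. Ifi35 rose in untreated TG (log2 0.74 ± 0.17, adjusted p = 0.0416; passing in 2 of the 10 fits without a library) and with DSS in WT (log2 0.87 ± 0.19, adjusted p = 0.0114; ending without WT DSS 1 (adjusted p = 0.0683)), and the contrast after DSS was log2 -0.11 ± 0.20, adjusted p = 0.874.

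**Figure D4:**
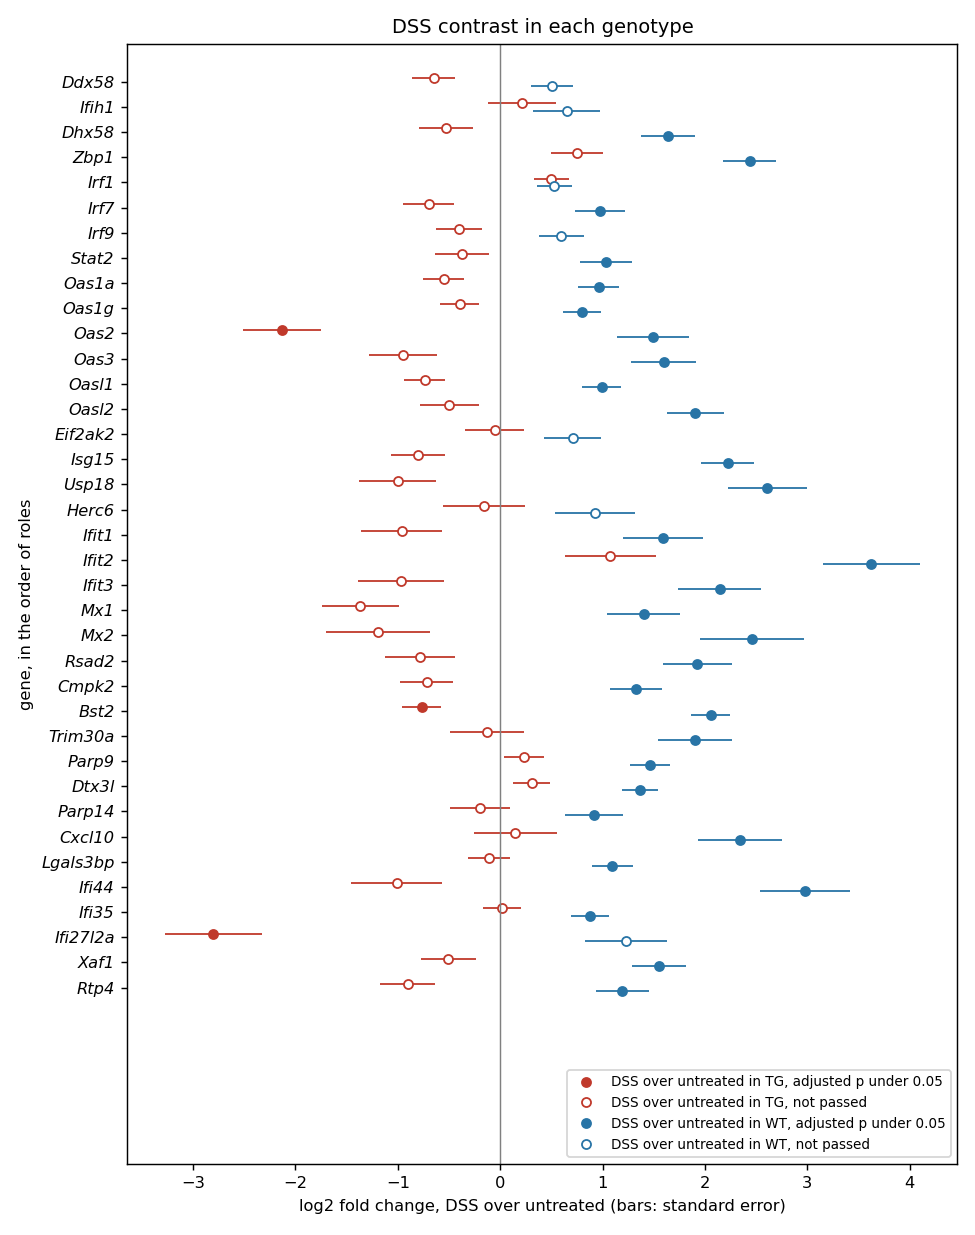
Log2 fold change of DSS over untreated for each of the 37 genes in TG (red) and WT (blue), with standard errors; filled points passed at adjusted p under 0.05. All 37 blue points lie right of 0 with 30 filled, and 29 red points lie left of 0 with 3 filled.

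**Figure D5:**
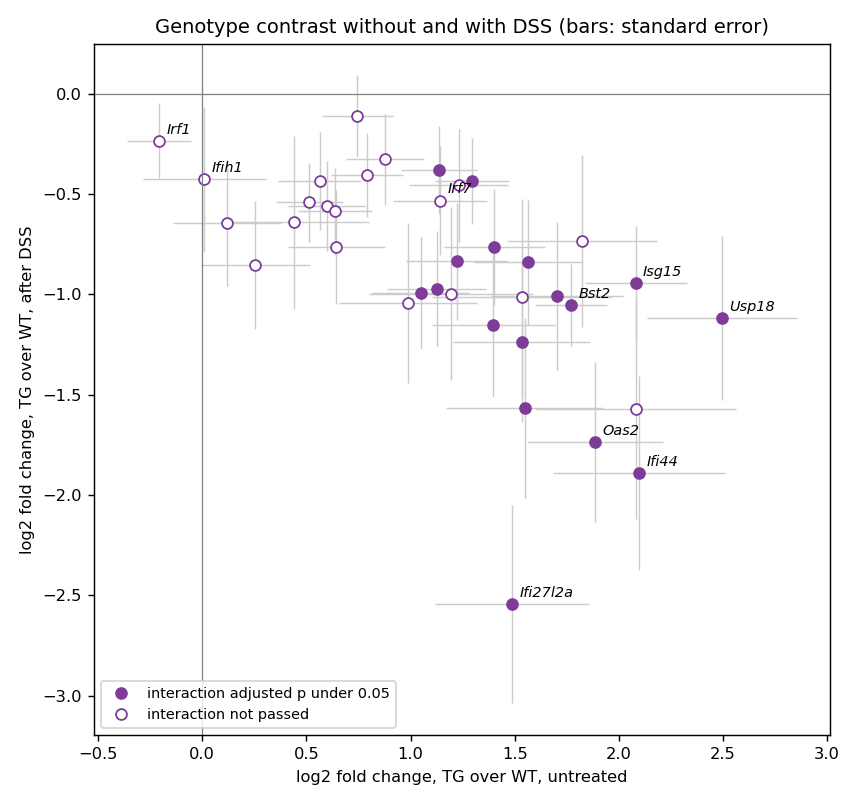
Log2 fold change of TG over WT in untreated tissue (x axis) and after DSS (y axis) for the 37 genes, with standard errors; filled points are the 17 genes whose interaction passed. All genes lie below 0 on the y axis and 36 lie right of 0 on the x axis.

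With the promoter windows set beside these values, the 14 genes with an ISRE core had a median log2 fold change of 1.17 in untreated TG against WT and 1.59 with DSS in WT, with 7 and 11 of them passing. The 13 genes whose window held none had medians of 1.05 and 1.10, with 8 and 10 passing, so genes of both kinds rose. Irf7 and Lgals3bp, which held no core, rose in both contrasts, as did Isg15 and Ifit1, whose cores are printed above. For the interaction 6 of 14 and 5 of 13 passed; no difference between the kinds was tested.

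Of 43 other genes of the pathway looked for, 36 were listed and 31 tested; 2 fell in untreated TG against WT. Of the 11 ligands 4 were listed in these libraries, and Ifnk, Ifnl2 and Ifnl3 were at most 0.0615 CPM in any library, about 1 count. Ifng, made mainly by lymphocytes, was at 0.645 and 0.468 CPM in TG DSS and 0.532 and 0.81 CPM in WT DSS. Ifng stood at 0.477, 0.768 and 1.18 CPM in TG untreated and 3.52, 7.14 and 3.57 CPM in WT untreated. Ifng fell in untreated TG against WT (log2 -2.55 ± 0.40, adjusted p = 0.0131; ending without TG untreated 2 (adjusted p = 0.055)) and with DSS in WT (log2 -2.80 ± 0.48, adjusted p = 0.00435), the reverse of most of the 37 genes. Beside these values, T cell markers summed to 24.3 and 25.9 CPM in TG DSS, 29 and 21.3 CPM in WT DSS, 27.9, 57.9 and 80.9 CPM in TG untreated and 69.7, 122 and 63 CPM in WT untreated. The untreated groups overlapped, with 0 of 3 markers passing between them in edgeR (1 at an unadjusted p under 0.05), while 3 of 3 fell with DSS in WT; their part in the Ifng values was not tested. None of the 6 receptor chains passed in any contrast by edgeR (at most 1 at an unadjusted p under 0.05 in a contrast, and 1 in untreated TG against WT in DESeq2), and Ifnar1, the signalling chain of the type I receptor, held 52.9 to 59.8 CPM in all 10 libraries.

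In untreated tissue the other change was in Irf2, a repressor of some interferon targets, which fell (log2 -0.62 ± 0.14, adjusted p = 0.036) and passed in 3 of the 10 fits without a library. With DSS in WT, 7 pathway genes rose and 1 fell. They included Tmem173, which encodes STING (log2 1.86 ± 0.26, adjusted p = 0.00173), and Socs3, a feedback inhibitor of cytokine signalling (log2 2.81 ± 0.34, adjusted p = 0.000704). Irf8, Socs1, Mb21d1 (cGAS) and Samhd1 rose by 0.94, 1.33, 0.85 and 0.82, of which Socs1 ended without WT DSS 1 (adjusted p = 0.0668), Mb21d1 without WT untreated 2 or 3 or WT DSS 2 (adjusted p = 0.0536 to 0.123) and Samhd1 without WT untreated 1 or 3 or WT DSS 1 (adjusted p = 0.0731 to 0.128). With DSS in TG, Irf8 (log2 0.70 ± 0.13, adjusted p = 0.0133; ending without TG DSS 1 or 2 (adjusted p = 0.0877 to 0.125)) and Socs3 (log2 1.97 ± 0.34, adjusted p = 0.00834; ending without TG DSS 2 (adjusted p = 0.102)) rose, where none of the 37 genes did. In edgeR no pathway gene outside the 37 passed in the interaction (9 at an unadjusted p under 0.05 and 3 in DESeq2) or between TG and WT after DSS (2 and 1).

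Plasmacytoid dendritic cells are the classic source of type I interferon. Of the 6 markers listed for them, Siglech and Cox6a2 reached at most 0.655 and 0.417 CPM in any library. Ccr9 held 1.12 to 6.14 CPM, Spib 3.35 to 10.7 CPM and Tcf4 15.3 to 35.7 CPM over the 10 libraries. In edgeR 4 of the 6 were tested. Of these, 0 passed in untreated TG against WT (1 at an unadjusted p under 0.05), 1 rose with DSS in WT and 1 rose with DSS in TG. The list of 6 markers summed to 934 to 1324 CPM in TG untreated and 545 to 889.8 CPM in WT untreated, of which Klk1 alone made 896 to 1291 CPM and 512 to 858 CPM. Leukocyte markers summed to 52.8, 134 and 198 CPM in TG untreated and 167, 314 and 161 CPM in WT untreated, with 0 of 3 passing in edgeR (1 at an unadjusted p under 0.05), and monocyte and macrophage markers to 62.1, 55.5 and 56.9 CPM and 50.03, 50.1 and 40.2 CPM, with 0 of 6 passing (1 unadjusted). Fibroblast markers, at 26, 72.6 and 75.7 CPM in TG untreated and 15.2, 19.4 and 23.7 CPM in WT untreated, rose for 2 of 5. Of the neutrophil markers, 1 of 6 fell in untreated TG, which was Ly6g, at 23.5, 33.6 and 32.1 CPM in TG untreated and 55.7, 72.1 and 59.2 CPM in WT untreated. Erythrocyte markers summed to 169 and 49.5 CPM in TG DSS, 9.28 and 8.53 CPM in WT DSS, 457, 319 and 525 CPM in TG untreated and 259, 207 and 144 CPM in WT untreated. The TG sums lay above the WT sums in either state, with 3 of 4 erythrocyte markers higher in TG after DSS and 0 of 4 passing in untreated tissue in edgeR (4 at an unadjusted p under 0.05), and with DSS 4 of 4 fell in WT and 3 of 4 in TG. The part of cell makeup in the values of the 37 genes was not tested. Fractional expected counts in all 10 libraries were found, as arise where reads match more than 1 gene, for 16 of the 37, among them Isg15, Ifit1, Ifit3, Oas1a, Oas1g, Mx1, Mx2 and Ifi27l2a, whose values are less certain. Whether counting used strand is not given in the sources used here. The annotated spans of Cxcl10, Ifi27l2a and Rtp4 overlap those of Art3, Ifi27 and Masp1, and the part of neighbours' reads in their values was not tested. Fractional counts were found in 0 libraries for Cxcl10 and Rtp4 and in 10 for Ifi27l2a.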

How the data were processed

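Poly-A RNA of intestinal tissue was sequenced on the BGISEQ-500 in 10 libraries, grouped by the labels. The submitters' processing notes list the build mm10 and the tools RSEM 1.2.12, HISAT2 2.0.4 and Bowtie2 2.2.5, without saying what each did. Per the file headers, the authors deposited for each gene an expected count, which need not be whole, an FPKM value and a gene length. A gene missing from a library's table was set to 0, and 25 damaged symbols were restored from the gene identifier. Coordinates come from GRCm38.p6.

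Expected counts were rounded to whole numbers, filtered with filterByExpr (count minimum 10, total minimum 15; 14072 genes kept), scaled by TMM and fitted in edgeR 4.0.16 under R 4.3.3 with 1 mean per group over all 10 libraries and no covariate (biological coefficient of variation 0.171, residual degrees of freedom 6). The Benjamini-Hochberg adjustment ran over all genes tested and an adjusted p under 0.05 passed. Counts at an unadjusted p under 0.05 are given without the share of all genes tested at that threshold. The SE was obtained from the log2 fold change and the square root of F. The deposited FPKM values served to compare levels between genes and for an alternative with limma 3.58.1. Since the labels name no animals, a p-value here reflects only how these libraries vary, which may be technical.

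The 37 genes, the pathway and marker lists and the comparisons were chosen with earlier results of these data known. Genes given in full are all sensors and transcription factors, in each other role the 2 with the highest mean CPM, Isg15, Usp18, Bst2 and Cxcl10, the extremes of each comparison, and every gene passing in the interaction. Calls lost when 1 library was left out are given beside each gene. Alternatives were DESeq2 1.42.0, other scalings and filters, limma on log2(FPKM + 1) or log2(FPKM + 0.1), the replicate number as a block, separate fits for each pair of groups, and a shorter motif. Deviations from group means correlated at -0.29 to 0.21 between libraries of different groups with the same replicate number, so the numbers were not taken as pairs. No library duplicated another of its own group, and pairs across groups were not checked. The edgeR script was tested on simulated data. Some genes of the pathway enter the counts and are not reported here by name.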

Additional observations from a re-analysis of the deposited data

Results flagged for a closer look

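For 17 genes the interaction term of the edgeR fit passed. In each, the change from untreated to DSS libraries was lower in TG than in WT. DSS cannot be told apart from sex in these libraries, so genotype by DSS cannot be told apart from genotype by sex. The interaction is given as log2, with the Benjamini-Hochberg adjusted p. Among the double-stranded RNA activated enzymes it was -3.62 for Oas2 (adjusted p = 0.0154), -2.55 for Oas3 (0.0393), -2.40 for Oasl2 (0.0299), -1.73 for Oasl1 (0.0238) and -1.52 for Oas1a (0.0422). In the ISG15 system it was -3.61 for Usp18 (0.0205) and -3.02 for Isg15 (0.00734). Among IFIT proteins and restriction factors it was -3.12 for Ifit3 (0.0422), -2.82 for Bst2 (0.00161), -2.77 for Mx1 (0.0412), -2.71 for Rsad2 (0.0369) and -2.04 for Cmpk2 (0.0354). Of the other induced genes, Ifi27l2a had -4.03 (0.0205), Ifi44 -3.99 (0.0238), Rtp4 -2.10 (0.0354) and Xaf1 -2.06 (0.041). Dhx58 was the only sensor, at -2.17 (0.0345). Of these, Bst2 passed in each of the 10 fits without a library; the libraries that ended each other call are named beside the gene above.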

How the results depend on the processing

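In TG against WT untreated, where 22 genes passed, 9 passed with the replicate number as a block and 14 with limma on log2(FPKM + 0.1), and leaving out 1 library gave 2 to 27. After DSS, TG against WT gave 0 in the fit reported, 6 with DESeq2 and 0 to 6 without a library. DSS in WT stayed within 1.5 times its 30 in every other setting (23 with the block) and ran from 18 to 35 without a library. DSS in TG, with 3, gave 9 with DESeq2, 11 in a fit of only the groups compared, 2 with the block and 0 to 12 without a library. The interaction, with 17, gave 30 with DESeq2, 5 with the block, 6 with limma on log2(FPKM + 0.1) and 1 to 26 without a library. The causes were not tested. Fits without a library hold fewer samples, though without TG untreated 1 more genes passed in TG against WT untreated (23, and 5.19% of all genes). Over all genes, 7.4% passed with DESeq2 and 1.18% with the block in TG against WT untreated, against 3.7% in the fit reported. DSS in TG gave 8.84% and 2.53%, against 5.48%, and the interaction 3.06% and 0.291%, against 0.846%. Same-numbered untreated libraries of TG and WT correlated at 0.08, -0.01 and -0.19 in their deviations from group means. Both same-numbered DSS pairs of TG and WT correlated at 0.21 and both crossed pairs at -0.21, values that are tied together in groups of 2. The labels name no animals, so the block rests on a shared number only. No called value changed sign under any setting run. Left-out libraries moved the calls by role: sensors from 0 to 3, transcription factors 0 to 2 and effectors 2 to 22 in TG against WT untreated. Total count scaling turned the split over all genes in that comparison to 235 higher and 382 lower, against 318 and 202, while the same 22 interferon genes passed. The motif without its last base matched 55.6% of the 27 interferon genes with a window in place of 51.9%, and 9.76% of all genes in place of 3.99%. Groups of 2 and 3 libraries limit every comparison, and the DSS groups differ from the untreated ones in sex-linked genes.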

Other observations

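Values that enter no comparison concern single libraries. In TG untreated 1, 8 of the 37 genes stood well below TG untreated 2 and 3: Ifih1 at 41 CPM against 103 and 104 CPM, Ifit1 at 40.7 against 99.2 and 72.3, Parp14 at 60.9 against 94 and 111, Eif2ak2 at 25.6 against 48.5 and 57.2, Trim30a at 16.7 against 30.0 and 28, Ifi44 at 15 against 30.0 and 27.1, Ifit2 at 13.7 against 35.3 and 33.1, and Herc6 at 8.65 against 22.7 and 20.6. They were picked after their values were seen. In the same library Lgals3bp (572 CPM, against 360.0 and 411 CPM) and Dhx58 (50.7 CPM, against 36.4 and 36.7 CPM) stood above the others, and the median over the 37 genes was like theirs. WT untreated 2 lay above the WT untreated mean for 36 of the 37 genes, WT untreated 1 for 10 and WT untreated 3 for 1. Its leukocyte markers summed to 314 CPM, against 167 and 161 CPM in WT untreated 1 and 3, and the part of that difference in the gene values was not tested.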
